A study of Mus musculus with 17 samples.

Results

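Transcripts of 10 genes of the oxygen-sensing pathway were followed in mouse skeletal muscle, out of 19938 genes measured. They were the 3 prolyl hydroxylases Egln1, Egln2 and Egln3, the hypoxia-inducible factor (HIF) alpha subunits Hif1a, Epas1 and Hif3a with their partner Arnt, the asparaginyl hydroxylase Hif1an, the von Hippel-Lindau gene Vhl and the HIF target Vegfa. The genes were taken by name, and Egln3 was chosen by its measured rise in the streptozotocin groups, so its levels against those of Con,SD mice are a description with no test. Each of the 10 had 1 probe set on the array that carried its symbol alone.

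The prolyl hydroxylases use oxygen and 2-oxoglutarate to hydroxylate the HIF alpha subunits, which are then bound by Vhl, the recognition subunit of a ubiquitin ligase, and degraded. When oxygen falls, or when succinate or fumarate accumulates and competes with 2-oxoglutarate, the alpha subunits escape hydroxylation, pair with Arnt and switch on genes of glycolysis, blood vessel growth and erythropoiesis. Egln3 and Vegfa are themselves HIF targets, and in muscle the pathway is known for its part in capillary supply and in the choice between oxidative and glycolytic fuel use. The regulation by oxygen acts on the proteins, which were not measured here.

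The values are log2 expression values from 1 array per mouse, so a difference of 1 is a doubling of signal, and all mice were wild-type C57BL/6N males of 5 to 6 months. The STZ,BEZ group (n = 5, labelled streptozotocin/bezafibrate-treated) and the STZ,SD group (n = 5, labelled streptozotocin-treated) had received 65 mg/kg streptozotocin, which destroys pancreatic beta cells, by intraperitoneal injection on 5 days at an age of 10 to 16 weeks. The STZ,BEZ mice then ate chow with bezafibrate, a fibrate that activates the PPAR nuclear receptors, for 8 weeks, beginning 2 weeks after streptozotocin. The labels give 0.25% or 0.5% as its strength without saying which mouse ate which. The STZ,SD mice stayed on the standard diet, as did the Con,SD mice (n = 7, labelled control), which had been injected with citrate buffer. The labels and the published methods do not match in the streptozotocin dose, the bezafibrate strength (only the higher one in the methods) and the control injections (none in the methods). The muscle sampled is not named in the sources used here.

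Fast-fibre markers were at 13.15 to 13.40 on every array as the mean of 11 genes, so the arrays carried the RNA of skeletal muscle. Marker levels of other cell types differed between the arrays. The mean of 12 hepatocyte genes reached 11.66 on Con,SD array 1, against 7.25 to 9.54 on the other control arrays, so this array stood apart and is left out below where that matters. The mean of 6 slow-fibre genes was 6.66 and 6.37 on STZ,SD arrays 4 and 5, against 9.25 to 9.84 on the other arrays of that group. It ranged from 6.40 to 9.26 in Con,SD mice and from 8.29 to 10.24 in STZ,BEZ mice. The group means were 8.96 in STZ,BEZ, 8.27 in STZ,SD and 7.81 in Con,SD mice. Against Con,SD mice the median difference of these genes was 0.53 in STZ,SD and 1.31 in STZ,BEZ mice. The mean of 14 endothelial genes was 8.48 to 8.60 in STZ,BEZ mice and 8.44 to 8.66 in STZ,SD mice, and both groups lay wholly above the 8.25 to 8.36 of Con,SD mice. Compared to Con,SD mice, 1 of 12 hepatocyte genes and 1 of 6 adipocyte genes fell in STZ,SD mice, against 8 and 1 in STZ,BEZ mice, while 1 of 7 smooth muscle genes rose in STZ,SD and 2 in STZ,BEZ mice. The calls were 0 of 9 macrophage, 0 of 2 measured erythroid, 0 of 6 slow-fibre and 1 of 11 fast-fibre genes in STZ,SD mice, and 1, 0, 0 and 1 in STZ,BEZ mice. Over all genes, 11.9% fell and 13.9% rose in STZ,SD mice, and 8.45% fell and 13.1% rose in STZ,BEZ mice. In whole muscle, fewer cells of a type and less RNA per cell cannot be told apart.

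The upstream sequences of the 3 prolyl hydroxylase genes are shown because HIF recognises a short core, ACGTG or GCGTG, and because Egln3 moved far more than its relatives Egln1 and Egln2. Each run holds the 250 bases before the RefSeq start (GRCm38.p6, minus strand for all 3, read 5′ to 3′), and capitals mark the core on either strand, written CACGT or CACGC where it lies on the other one. Egln3 is at chr12:54203875-54204124, Egln1 at chr8:124949255-124949504 and Egln2 at chr7:27166803-27167052, for which the first of 2 entries is given.
Egln3: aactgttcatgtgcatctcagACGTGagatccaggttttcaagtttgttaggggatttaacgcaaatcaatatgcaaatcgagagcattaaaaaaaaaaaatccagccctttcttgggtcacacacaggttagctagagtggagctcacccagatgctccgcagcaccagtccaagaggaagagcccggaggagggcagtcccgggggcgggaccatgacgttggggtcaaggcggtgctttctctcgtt
Egln1: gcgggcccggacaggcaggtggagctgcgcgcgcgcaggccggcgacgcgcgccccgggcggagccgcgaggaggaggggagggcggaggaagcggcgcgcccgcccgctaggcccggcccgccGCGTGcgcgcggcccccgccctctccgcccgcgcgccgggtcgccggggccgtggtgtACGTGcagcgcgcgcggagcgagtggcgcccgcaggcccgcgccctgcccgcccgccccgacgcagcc
Egln2: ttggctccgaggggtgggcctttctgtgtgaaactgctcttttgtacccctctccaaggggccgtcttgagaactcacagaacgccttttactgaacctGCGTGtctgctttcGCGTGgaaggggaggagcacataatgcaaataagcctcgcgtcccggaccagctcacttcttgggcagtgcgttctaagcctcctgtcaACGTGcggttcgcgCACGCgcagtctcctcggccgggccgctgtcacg
In these stretches the core occurred once in Egln3, from position -229 counted from the start, once in each of its forms in Egln1, and 4 times in Egln2. A further Egln2 match, CACGTG, spanned the start itself. In windows from 250 bases before to 50 bases after the start, 9 of the 10 genes had an entry (Epas1 had none) and 7 of these 9 held a core. Hif1an and Vhl had no match, which says only that these letters are not in this window, and Vegfa had none in its first entry and 2 in its second. A core was found in 43.8% of all 32851 such windows (ACGTG in 19.6%, GCGTG in 32.4%), so a match is a description and not a binding site. That share counts single windows, whereas the 7 of 9 counts genes with a match in any entry.

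Egln3 was the member with by far the largest differences. Egln3 (probe set 10400304), the prolyl hydroxylase that is itself strongly induced by HIF, stood at 9.65, 9.76, 9.40, 10.14 and 10.33 on the 5 STZ,BEZ arrays and at 9.98, 11.38, 11.53, 9.17 and 9.56 on the 5 STZ,SD arrays. On the 7 Con,SD arrays the lowest value was 8.35, the median 8.60 and the highest 9.13. Every array of both streptozotocin groups thus lay above every control array, with STZ,SD array 4 the nearest to them. The group means were 9.86 ± 0.38 (SD, n = 5) in STZ,BEZ mice, 10.32 ± 1.07 (SD, n = 5) in STZ,SD mice and 8.64 ± 0.30 (SD, n = 7) in Con,SD mice.

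The difference between STZ,SD and Con,SD mice in Egln3 was 1.68 ± 0.33 (SE), a 3.21-fold higher signal, which ranked 2 among all rises and 8 by size in either direction. STZ,BEZ mice differed from Con,SD mice by 1.21 ± 0.33, or 2.32-fold, at rank 16 among the rises. Between STZ,BEZ and STZ,SD mice the arrays overlapped, with a difference of -0.47 ± 0.36 (limma, adjusted p = 0.965) and a 95% interval from -1.22 to 0.28. The size of the STZ,SD value rested in part on arrays 2 and 3, and without one of them it was 1.42 or 1.38. The within-group SD of Egln3, 0.637, was at percentile 98.9 of all genes, whereas that of Egln2, 0.071, was at percentile 2.35 and that of Egln1, 0.104, at percentile 18.9.

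**Figure D1:**
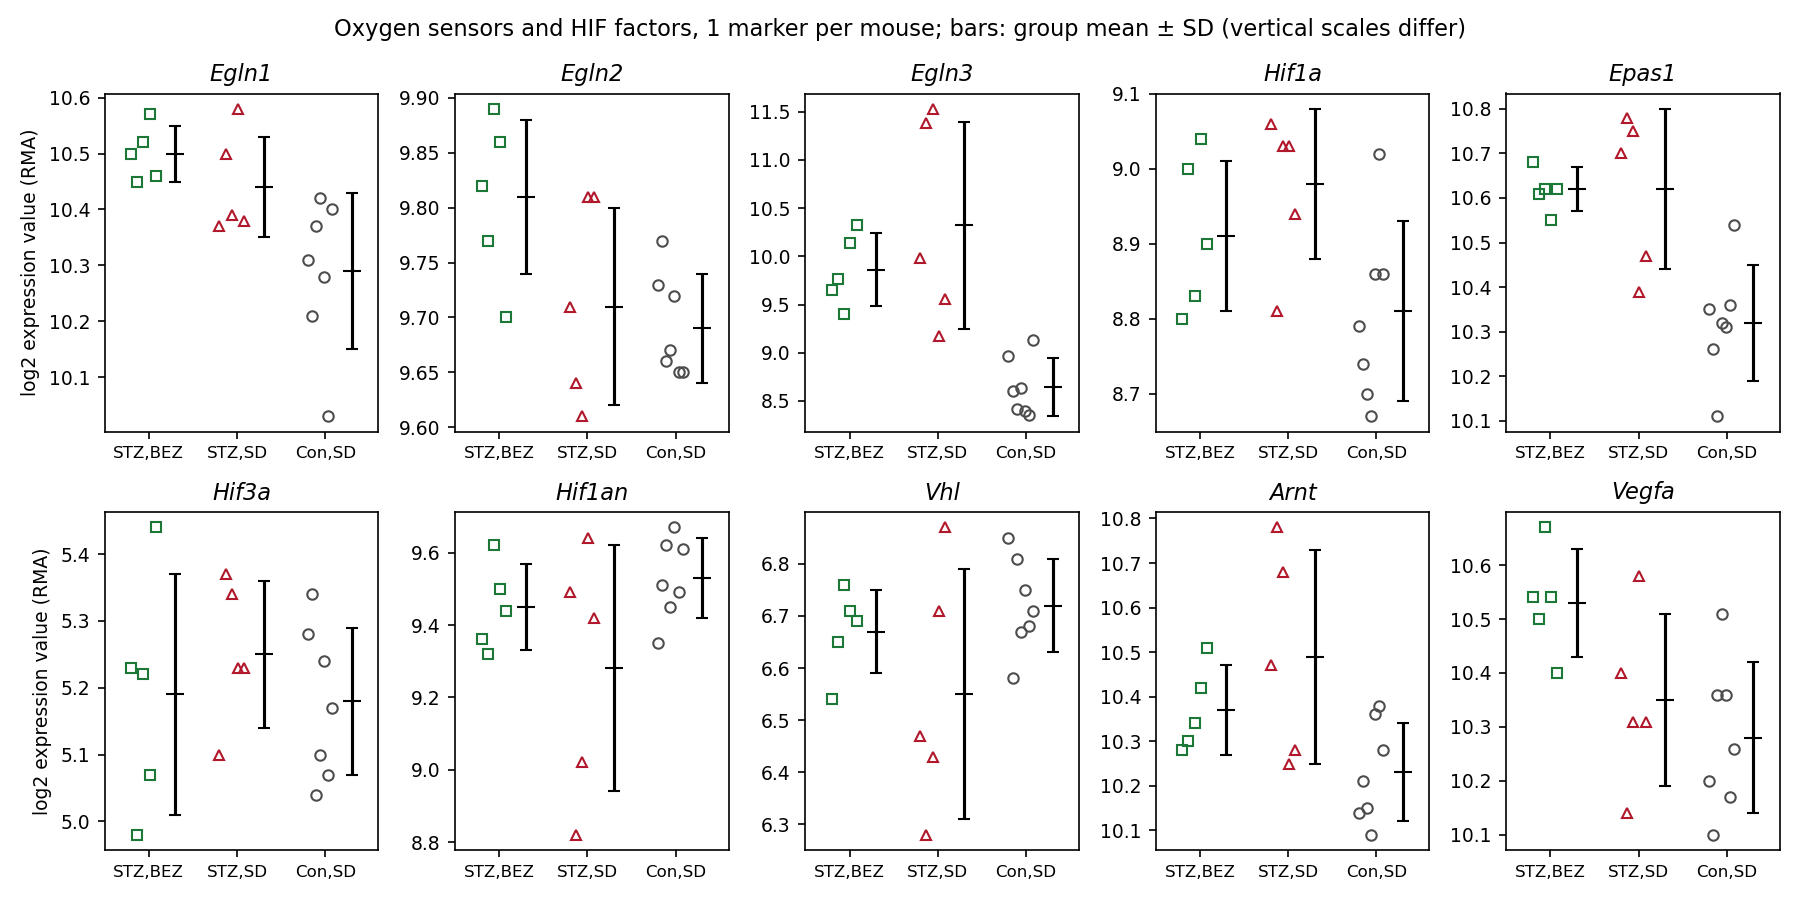
Log2 expression values of the 10 genes (vertical axes, which differ between panels) in STZ,BEZ (green squares, n = 5), STZ,SD (red triangles, n = 5) and Con,SD mice (grey circles, n = 7), 1 marker per mouse, with bars for the group mean ± SD. All Egln3 markers of the streptozotocin groups lie above the highest control at 9.13, and the STZ,SD group spreads from 9.17 to 11.53.

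Egln1 and Egln2 moved little. Egln1 (probe set 10582712), the main oxygen sensor of most tissues, had values of 10.50, 10.45, 10.52, 10.57 and 10.46 in STZ,BEZ mice and of 10.37, 10.50, 10.39, 10.58 and 10.38 in STZ,SD mice. In Con,SD mice Egln1 ranged from 10.03 to 10.42 with a median of 10.31. All STZ,BEZ arrays were above all control arrays, whereas 2 of the 5 STZ,SD arrays were. Egln1 was 1.16-fold higher in STZ,BEZ than in Con,SD mice (0.21 ± 0.07, limma, adjusted p = 0.0384). That call was lost with the slow-fibre level (0.19), the hepatocyte level (0.19) or the endothelial level (0.19) as a covariate. In STZ,SD against Con,SD mice its value was 0.15 ± 0.07 (adjusted p = 0.112), which passed the threshold under 5 of the alternatives: a second quantile normalization (0.18), the 30% dimmest genes left out (0.15), array weights (0.16), and without Con,SD array 4 (0.18) or array 7 (0.17).

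Egln2 (probe set 10561170), a prolyl hydroxylase that is not induced by hypoxia in most cells, had values of 9.82, 9.77, 9.89, 9.86 and 9.70 in STZ,BEZ mice and of 9.71, 9.64, 9.61, 9.81 and 9.81 in STZ,SD mice. In Con,SD mice it ranged from 9.65 to 9.77 with a median of 9.67. The groups overlapped, although 4 of the 5 STZ,BEZ arrays were above the highest control. The difference was 0.12 ± 0.05 between STZ,BEZ and Con,SD mice (adjusted p = 0.147), 0.02 ± 0.05 between STZ,SD and Con,SD mice (adjusted p = 0.807) and 0.09 ± 0.06 between STZ,BEZ and STZ,SD mice (adjusted p = 0.932). The first of these passed the threshold when the slow-fibre level was a covariate (0.16). Of the 3 relatives, Egln2 had the most core matches in its printed stretch and varied least within groups. A relation between matches and expression was not tested.

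Hif1an and Vhl, which act on the alpha subunits beside the prolyl hydroxylases, were lowest on the STZ,SD arrays where Egln3 was highest. Hif1an (probe set 10463380), which hydroxylates an asparagine of the alpha subunits and so blocks their coactivators, had 9.36, 9.32, 9.62, 9.50 and 9.44 in STZ,BEZ mice and 9.49, 8.82, 9.02, 9.64 and 9.42 in STZ,SD mice. In Con,SD mice it ranged from 9.35 to 9.67 with a median of 9.51. STZ,SD arrays 2 and 3 were below all 15 other arrays, and the other 3 arrays of that group lay within the control range. The group difference of -0.25 ± 0.11 did not pass the threshold (limma, adjusted p = 0.131). It did so under 5 of the alternatives. With all arrays kept, these were significance analysis of microarrays (SAM, 100 permutations), the kind of test the study names, at the same difference of -0.25, and the hepatocyte level as a covariate (-0.31). The others left out STZ,SD array 4 (-0.34), STZ,SD array 1 (-0.30) or the hepatocyte-rich Con,SD array 1 (-0.28). Without STZ,SD array 2 the difference came to -0.14. In STZ,BEZ mice Hif1an differed by 0.17 ± 0.12 from STZ,SD mice (adjusted p = 0.96) and by -0.08 ± 0.11 from Con,SD mice (adjusted p = 0.67).

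Vhl (probe set 10540790) had values of 6.54, 6.65, 6.76, 6.71 and 6.69 in STZ,BEZ mice and of 6.47, 6.28, 6.43, 6.71 and 6.87 in STZ,SD mice. Con,SD mice ranged from 6.58 to 6.85 with a median of 6.71. STZ,SD arrays 1, 2 and 3 were below every control array, while array 5 was above them all. The difference between STZ,SD and Con,SD mice was -0.17 ± 0.08 (adjusted p = 0.178), and it passed the threshold without STZ,SD array 5 (-0.25). STZ,BEZ mice differed by 0.12 ± 0.09 from STZ,SD mice (adjusted p = 0.969) and by -0.05 ± 0.08 from Con,SD mice (adjusted p = 0.728).

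Of the alpha subunits, Epas1 was higher in both streptozotocin groups. Epas1 (probe set 10447317), which encodes HIF-2 alpha and is abundant in endothelium, stood at 10.68, 10.61, 10.62, 10.55 and 10.62 in STZ,BEZ mice and at 10.70, 10.78, 10.75, 10.39 and 10.47 in STZ,SD mice. The lowest Con,SD value was 10.11, the median 10.32 and the highest 10.54. The STZ,BEZ arrays all exceeded the controls, and STZ,SD arrays 4 and 5 did not. Epas1 rose 1.23-fold in STZ,SD mice (0.30 ± 0.08, limma, adjusted p = 0.0112) and 1.23-fold in STZ,BEZ mice (0.30 ± 0.08, adjusted p = 0.0144), both compared to Con,SD mice. The difference between STZ,BEZ and STZ,SD mice was 0.00 with a 95% interval from -0.17 to 0.17 (adjusted p = 1).

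Epas1, Egln3 and the endothelial marker level were all higher in both streptozotocin groups than in Con,SD mice. Of the 14 endothelial genes, 9 rose in STZ,SD mice and 7 rose in STZ,BEZ mice compared to Con,SD mice, and 0 fell in either. Over all genes, 13.9% rose in STZ,SD mice and 13.1% in STZ,BEZ mice. Within STZ,SD mice the endothelial mean was 8.61 and 8.66 on arrays 2 and 3. It was 8.53 on array 1 and 8.44 on each of arrays 4 and 5. Arrays 4 and 5 were also the lowest of the group in Epas1, in Egln3 and in the slow-fibre, smooth muscle and erythroid means. Within STZ,BEZ mice the endothelial mean was 8.60 and 8.58 on arrays 1 and 3, where Egln3 was 9.65 and 9.40. It was 8.48 and 8.50 on arrays 4 and 5, where Egln3 was highest, at 10.14 and 10.33. On array 2 it was 8.50, with Egln3 at 9.76. Epas1 was 10.68 and 10.62 on STZ,BEZ arrays 1 and 3, 10.55 and 10.62 on arrays 4 and 5, and 10.61 on array 2. The endothelial mean was then made a covariate, a choice made after seeing the data. With it, the difference between STZ,SD and Con,SD mice became -0.03 for Epas1, 0.28 for Egln3 and -0.04 for Arnt. Apart from Egln3, which is not tested, 0 of the 10 genes passed the threshold, and 168 genes of the whole table did. Between STZ,BEZ and Con,SD mice the difference became -0.17 for Egln3, -0.02 for Epas1 and -0.16 for Arnt. Again apart from Egln3, 0 of the 10 genes passed, and 209 of the whole table did. Because the marker mean did not overlap between Con,SD and the streptozotocin groups, its part in these differences and that of the treatment cannot be told apart.

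Hif1a and Hif3a differed little. Hif1a (probe set 10396421), which encodes the widely expressed HIF-1 alpha, had 8.80, 9.0, 8.83, 9.04 and 8.90 in STZ,BEZ mice and 9.06, 8.81, 9.03, 9.03 and 8.94 in STZ,SD mice. The lowest Con,SD value was 8.67, the median 8.79 and the highest 9.02. The groups overlapped. Hif1a passed the threshold in STZ,SD against Con,SD mice, at 1.12-fold (0.17 ± 0.07, adjusted p = 0.0935), but lost it under 17 of the alternatives tried and kept it under 8, without a change of direction. In STZ,BEZ mice its value was 0.11 ± 0.07 against Con,SD mice (adjusted p = 0.31) and -0.06 ± 0.07 against STZ,SD mice (adjusted p = 0.997). Hif3a (probe set 10560329), whose products include inhibitors of the other alpha subunits, lay between 4.98 and 5.44 on all arrays, among the 30% dimmest genes, and its group means were 5.19 ± 0.18 in STZ,BEZ, 5.25 ± 0.11 in STZ,SD and 5.18 ± 0.11 in Con,SD mice (SD). Its differences lay between -0.06 and 0.07 in the 3 comparisons.

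Arnt (probe set 10494238), the common partner of the alpha subunits, had values of 10.28, 10.30, 10.34, 10.42 and 10.51 in STZ,BEZ mice and of 10.47, 10.78, 10.68, 10.25 and 10.28 in STZ,SD mice. Con,SD mice ranged from 10.09 to 10.38 with a median of 10.21. STZ,SD arrays 2 and 3 were again the highest of all 17 arrays, and arrays 4 and 5 lay within the control range. Arnt rose 1.2-fold in STZ,SD compared to Con,SD mice (0.26 ± 0.09, limma, adjusted p = 0.0447). The call was lost without array 2 (0.19) or array 3 (0.22), and also with all arrays kept under array weights (0.20). In STZ,BEZ mice Arnt differed by 0.14 ± 0.09 from Con,SD mice (adjusted p = 0.294) and by -0.12 ± 0.10 from STZ,SD mice (adjusted p = 0.971).

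Vegfa (probe set 10451198), the angiogenic growth factor induced by HIF, followed another order. Its values were 10.54, 10.50, 10.67, 10.54 and 10.40 in STZ,BEZ mice and 10.40, 10.14, 10.31, 10.58 and 10.31 in STZ,SD mice, and Con,SD mice ranged from 10.10 to 10.51 with a median of 10.26. On STZ,SD array 2, where Egln3 was near its maximum, Vegfa was at the lowest value of its group. On array 3, where Egln3 was highest, Vegfa was at the group median of 10.31. Vegfa was 1.19-fold higher in STZ,BEZ than in Con,SD mice (0.25 ± 0.08, limma, adjusted p = 0.0404), with 3 of 5 arrays above all controls. That call was lost without STZ,BEZ array 3 (0.22) and with the hepatocyte level (0.15) or the endothelial level (0.33) as a covariate. The value was 0.07 ± 0.08 for STZ,SD against Con,SD mice (adjusted p = 0.587) and 0.18 ± 0.09 for STZ,BEZ against STZ,SD mice (adjusted p = 0.87), with a 95% interval from 0.00 to 0.36.

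Counted together, the genes were called about as often as genes in general. In STZ,SD against Con,SD mice 3 of the 9 genes other than Egln3 were called (Epas1, Arnt and Hif1a, all higher), beside 25.8% of all genes. In STZ,BEZ against Con,SD mice 3 of these 9 were called (Egln1, Epas1 and Vegfa, all higher), beside 21.6% of all genes. Egln3 was left out of these counts because it was chosen by its rise. In STZ,BEZ against STZ,SD mice 0 of 10 were called, beside 0.0201% of all genes, and at an unadjusted p under 0.05 there was 1 of 10 (Vegfa) beside 5.69%. Counts of 3 among 9, or 33.3%, do not set these genes apart from the rest of the array.

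The median difference of the 9 genes without Egln3 was 0.07 in STZ,SD against Con,SD mice and 0.12 in STZ,BEZ against Con,SD mice, beside -0.01 over all genes in each. For Egln3, chosen by its rise, the groups did not overlap in either comparison with Con,SD mice. Of the other 9 genes, 0 had groups that did not overlap in STZ,SD against Con,SD mice, beside 8.3% of all genes. In STZ,BEZ against Con,SD mice such groups were found for Egln1 and Epas1, beside 8.51%. In STZ,BEZ against STZ,SD mice they were found for 0 of 10, beside 1.16%. Both comparisons with Con,SD mice use the same 7 control arrays. Without the hepatocyte-rich Con,SD array 1, Hif1an (-0.28) was called in place of Hif1a (0.17) in STZ,SD mice. The genes called in STZ,BEZ mice were the same.

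**Figure D2:**
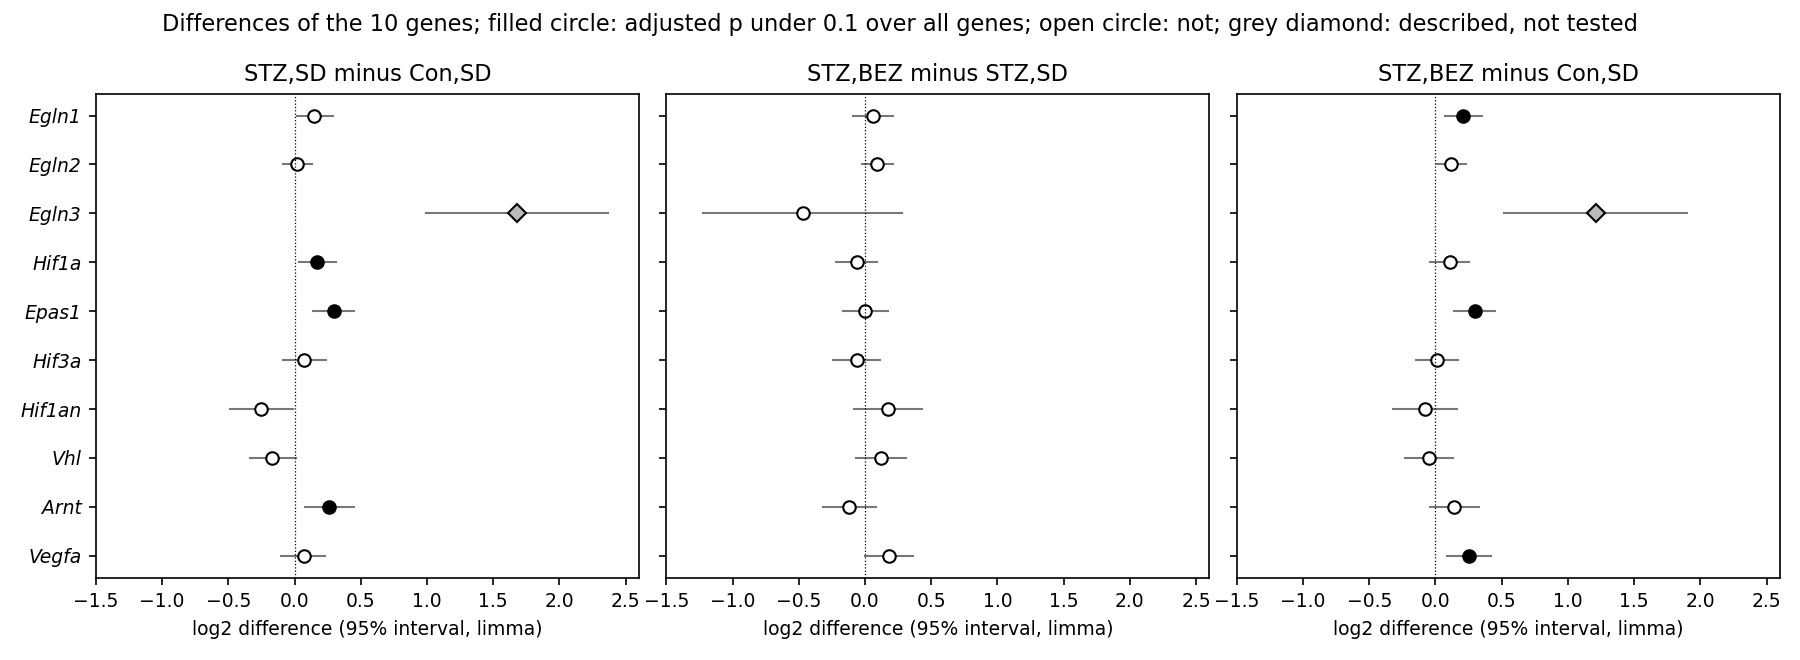
Log2 differences of the 10 genes in the 3 comparisons (horizontal axes) with 95% intervals from limma. Filled circles have an adjusted p under 0.1 over 19938 genes, open circles do not, and grey diamonds mark the Egln3 values that are described and not tested, 1.68 and 1.21.

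Within groups, several of the genes varied together with Egln3, and their correlations were weaker without STZ,SD arrays 2 and 3. After each group's mean was subtracted, Egln3 was compared with the 9 other genes over the 17 arrays (100000 permutations within groups, two-sided, adjusted over 9 relations). Pearson's r was -0.80 for Hif1an (permutation p = 0.0195, adjusted 0.0584), -0.72 for Egln2 (p = 0.0153, adjusted 0.0584), 0.75 for Arnt (p = 0.0242, adjusted 0.0584) and 0.70 for Epas1 (p = 0.0259, adjusted 0.0584). Spearman's rho was -0.74 for Hif1an (permutation p = 0.0148, adjusted 0.0833), -0.70 for Egln2 (p = 0.0185, adjusted 0.0833), 0.56 for Arnt (p = 0.0836, adjusted 0.149) and 0.52 for Epas1 (p = 0.0995, adjusted 0.149). With STZ,SD arrays 2 and 3 left out, the 2 arrays farthest from the median of Egln3, r was -0.32 for Hif1an, -0.46 for Egln2, 0.33 for Arnt and 0.52 for Epas1. The relations with Hif1an and Arnt were thus weaker without those arrays. Leaving them out also narrows the range of Egln3, so how far the relations rested on them cannot be told. The same arrays had the lowest mean of the 9 macrophage genes among all 17 arrays, 7.49 and 7.40, against 7.82 to 8.26 on the other STZ,SD arrays and 7.58 to 8.08 on the arrays of the other groups. The part of this marker level in the relations was not tested.

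Vegfa had r = -0.56 with Egln3 (permutation p = 0.0328, adjusted 0.059), rho = -0.51 (adjusted 0.149) and r = -0.45 without the 2 arrays. Vhl had r = -0.61 (permutation p = 0.146, adjusted 0.188), rho = -0.46 (adjusted 0.201) and r = -0.14 without them. For Hif3a r was 0.40 and rho 0.46 (permutation, adjusted 0.132 and 0.149). Egln1 and Hif1a had r of 0.03 and -0.11 and rho of 0.14 and -0.12, with adjusted permutation p of 0.902 and 0.798 for r and 0.698 for each rho.

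**Figure D3:**
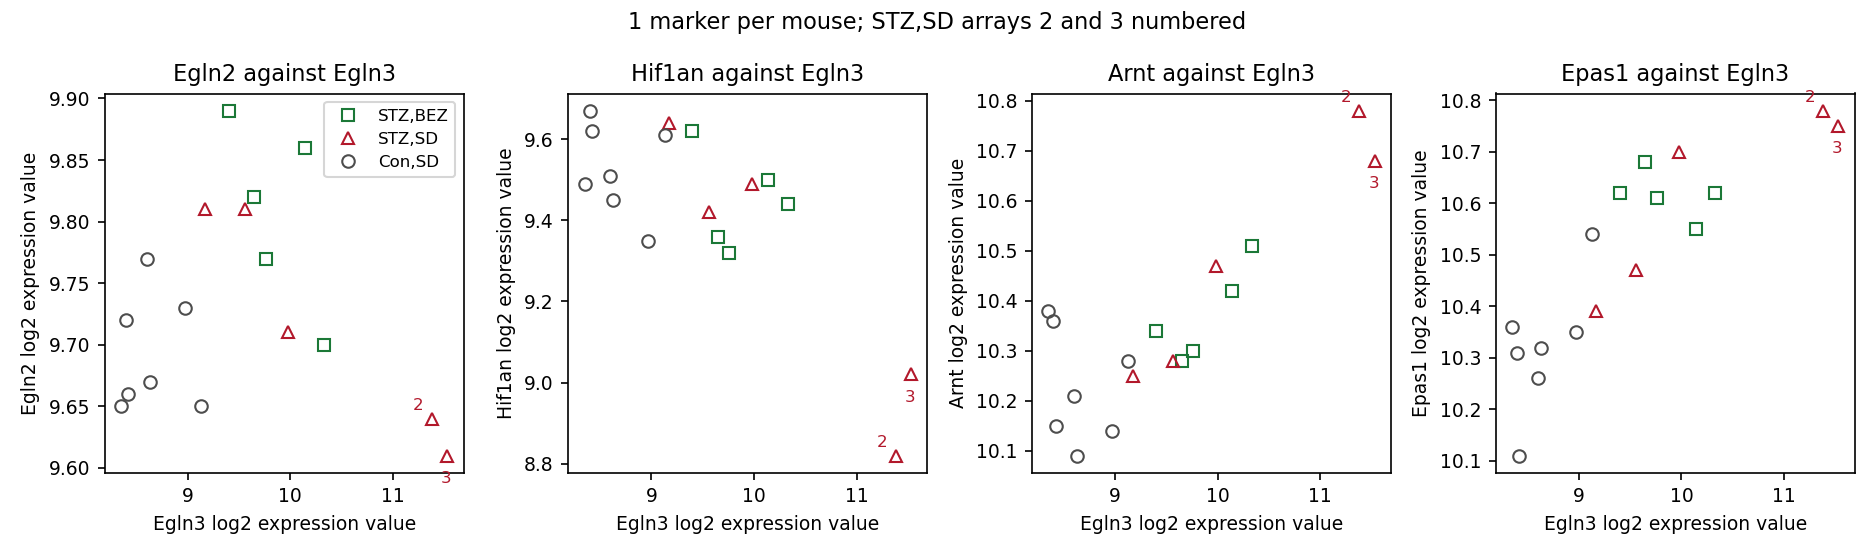
Egln2, Hif1an, Arnt and Epas1 (vertical axes) against Egln3 (horizontal axes), log2 expression values, 1 marker per mouse, in STZ,BEZ (green squares), STZ,SD (red triangles) and Con,SD mice (grey circles). STZ,SD arrays 2 and 3, numbered, lie at 11.38 and 11.53 on the Egln3 axis, with Hif1an at 8.82 and 9.02 and Arnt at 10.78 and 10.68.

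The genes most like Egln3 over the 17 arrays were Acss1 (Pearson's r = 0.983), Pnpla2 (0.97), Rnf39 (0.962), Adgrf5 (0.959) and Pcnt (0.955). With the group means subtracted they were Acss1 (0.962), Retreg1 (0.962), Pnpla2 (0.94), Ip6k3 (0.938) and Depp1 (0.925). These 5 and 5 were the highest of all genes by that measure, so no p is given, and each of them also had its highest values on STZ,SD arrays 2 and 3. Acss1, a mitochondrial acetyl-CoA synthetase, had 8.83, 9.24, 8.82, 9.14 and 9.31 in STZ,BEZ mice, 9.33, 10.13, 10.03, 8.73 and 8.89 in STZ,SD mice and 8.18 to 8.65 in Con,SD mice. Pnpla2, the adipose triglyceride lipase, reached 11.59 and 11.78 on STZ,SD arrays 2 and 3, against 10.73 to 10.84 on the other arrays of the group. Among the 10 genes of the pathway the Pearson's r with Egln3 over all arrays was highest for Epas1 (0.864) and Arnt (0.841).

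The other genes of the pathway were taken from lists made with earlier results of these data known. Of 20 measured HIF partners and turnover factors, 5 rose and 2 fell in STZ,SD compared to Con,SD mice, and 5 rose and 1 fell in STZ,BEZ compared to Con,SD mice, beside 25.8% and 21.6% of all genes called. Cited2, a HIF target that competes with the alpha subunits for the coactivators, stood at 10.72 to 11.56 in STZ,BEZ mice, 10.47 to 11.12 in STZ,SD mice and 9.92 to 10.27 in Con,SD mice. Neither streptozotocin group overlapped with the controls. It rose by 1.2 ± 0.13 in STZ,BEZ mice (limma, adjusted p = 2.56e-05) and by 0.78 ± 0.13 in STZ,SD mice (adjusted p = 0.000639). The coactivator Crebbp (0.38 in STZ,BEZ and 0.42 in STZ,SD mice) and its relative Ep300 (0.28 in STZ,BEZ and 0.29 in STZ,SD mice) also rose. Rbx1, the RING subunit of the ligase that carries Vhl, had 9.02 to 9.37 in STZ,BEZ mice, 8.71 to 9.17 in STZ,SD mice and 9.42 to 9.87 in Con,SD mice, and fell by 0.65 ± 0.09 in STZ,SD mice (adjusted p = 0.000111). The other ligase parts Cul2 (-0.14, adjusted p = 0.117) and Eloc (-0.08, adjusted p = 0.459) did not pass in STZ,SD mice, and Elob rose by 0.21 (adjusted p = 0.0412).

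Glycolytic HIF targets were more often called lower than higher. In STZ,SD compared to Con,SD mice 6 of 17 fell (11.9% of all genes did) and 1 rose, with a list median of -0.15, and in STZ,BEZ compared to Con,SD mice 5 fell (8.45% of all genes did) and 2 rose, with a median of -0.06. Ldha, the lactate dehydrogenase of muscle, had 13.44 to 13.50 in STZ,BEZ mice and 13.31 to 13.55 in STZ,SD mice, all below the 13.60 to 13.78 of Con,SD mice. It fell by 0.28 ± 0.05 in STZ,SD mice (limma, adjusted p = 0.00184), and Slc16a3, which exports lactate, fell by 0.33 (adjusted p = 0.00338). The exception was Pfkfb3, which makes the activator of phosphofructokinase and rose by 0.78 ± 0.15 in STZ,BEZ mice (adjusted p = 0.00179) and by 0.63 ± 0.15 in STZ,SD mice (adjusted p = 0.00606). Pdk1, the kinase that inhibits pyruvate dehydrogenase, rose by 0.28 ± 0.06 in STZ,BEZ compared to Con,SD mice (adjusted p = 0.00255) and had 0.03 in STZ,SD mice (adjusted p = 0.768). All 5 STZ,BEZ arrays exceeded the STZ,SD arrays for Pdk1, and its difference of 0.26 ± 0.06 between these groups had an adjusted p of 0.444.

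Among 30 other HIF targets, 11 rose and 4 fell in STZ,SD compared to Con,SD mice, while 6 rose and 1 fell in STZ,BEZ compared to Con,SD mice. Over all genes 13.9% rose and 11.9% fell in STZ,SD mice, and 13.1% rose and 8.45% fell in STZ,BEZ mice, so the STZ,BEZ count lay near the background of 21.6%. Lox, the lysyl oxidase that crosslinks collagen, was at 7.94 to 8.62 in STZ,BEZ mice, 8.27 to 8.76 in STZ,SD mice and 7.50 to 7.89 in Con,SD mice. It rose by 0.86 ± 0.11 in STZ,SD mice (limma, adjusted p = 7.77e-05) and by 0.44 ± 0.11 in STZ,BEZ mice (adjusted p = 0.0137). The MYC antagonist Mxi1 (0.31 in STZ,BEZ and 0.35 in STZ,SD mice) and the stress-responsive Ndrg1 (0.38 in STZ,BEZ and 0.30 in STZ,SD mice) rose in both groups. Vldlr, the very-low-density lipoprotein receptor, went the other way and fell by 0.43 in STZ,BEZ mice and by 0.59 in STZ,SD mice, both compared to Con,SD mice.

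Of 20 angiogenic ligands and receptors, 5 rose and 1 fell in STZ,SD compared to Con,SD mice, and 4 rose and 2 fell in STZ,BEZ compared to Con,SD mice. These 6 of 20 in each comparison stand beside 25.8% of all genes called in STZ,SD and 21.6% in STZ,BEZ mice, and the counts do not set the list apart. The VEGF receptor Flt1 rose by 0.34 in STZ,BEZ mice (limma, adjusted p = 0.0285) and by 0.33 in STZ,SD mice (adjusted p = 0.0306). Notch1 (0.28 in STZ,BEZ and 0.22 in STZ,SD mice) and its ligand Dll4 (0.26 in STZ,BEZ and 0.22 in STZ,SD mice) also rose. Vegfd, a ligand of the VEGF family, rose by 0.47 in STZ,SD mice (adjusted p = 0.0226) and had 0.30 in STZ,BEZ mice (adjusted p = 0.154). Flt1, Notch1 and Dll4 are expressed in endothelium, whose marker level differed in the same direction, and its part in these values was not tested for them.

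The enzymes that make and remove the cosubstrate and the competitors of the hydroxylases were called most often of the 6 lists. The list held 18 measured genes of enzymes that make or remove 2-oxoglutarate, succinate or fumarate. In STZ,SD compared to Con,SD mice 9 fell and 3 rose, with a list median of -0.19. In STZ,BEZ compared to Con,SD mice 7 fell and 3 rose, with a median of -0.08. Of all genes, 11.9% fell and 13.9% rose in STZ,SD mice, and 8.45% fell and 13.1% rose in STZ,BEZ mice. Fh1, the fumarase that removes fumarate, was at 10.90, 10.73, 11.08, 10.95 and 10.70 in STZ,BEZ mice and at 10.59, 10.47, 10.65, 10.84 and 10.56 in STZ,SD mice. Con,SD mice ranged from 11.04 to 11.54, so that only STZ,BEZ array 3 reached the control range. The Fh1 difference to Con,SD mice was -0.51 ± 0.09 in STZ,BEZ mice (limma, adjusted p = 0.00109) and -0.76 ± 0.09 in STZ,SD mice (adjusted p = 2.53e-05). Between STZ,BEZ and STZ,SD mice it was 0.25 ± 0.10 (adjusted p = 0.796).

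Idh3a, a subunit of the NAD-dependent isocitrate dehydrogenase that yields 2-oxoglutarate, fell by 0.54 in STZ,BEZ mice and by 0.67 in STZ,SD mice. Of the other isocitrate dehydrogenase genes, Idh2 had 0.62 in STZ,BEZ mice and 0.66 in STZ,SD mice. Idh1, Idh3b and Idh3g had negative values in both groups. Sdha, the flavoprotein of succinate dehydrogenase, fell by 0.24 in STZ,BEZ mice and by 0.38 in STZ,SD mice. Its anchor subunit Sdhc rose by 0.24 in STZ,BEZ mice and by 0.16 in STZ,SD mice. The other anchor subunit, Sdhd, had -0.52 in STZ,BEZ mice and -0.65 in STZ,SD mice, both called. The genes of 1 complex thus did not move in 1 direction. Suclg2 fell by 0.39 and Suclg1 rose by 0.36 in STZ,BEZ mice, both subunits of succinyl-CoA ligase.

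Of the 18 genes listed as other dioxygenases that depend on 2-oxoglutarate, 6 rose and 0 fell in STZ,SD compared to Con,SD mice, and 7 rose and 0 fell in STZ,BEZ compared to Con,SD mice, beside 13.9% and 13.1% of all genes called higher. P4ha1, a collagen prolyl hydroxylase that also uses 2-oxoglutarate but was listed among the HIF targets, fell by 0.32 ± 0.12 in STZ,SD mice (limma, adjusted p = 0.0739) and had 0.05 in STZ,BEZ mice (adjusted p = 0.816), and is named here after its values were seen. Tet2, which oxidises methylcytosine, had 7.78 to 8.13 in STZ,BEZ mice, 8.15 to 8.57 in STZ,SD mice and 7.38 to 7.97 in Con,SD mice. It rose by 0.63 in STZ,SD mice (limma, adjusted p = 0.000397) and by 0.29 in STZ,BEZ mice (adjusted p = 0.0646). The histone demethylases Kdm6b (0.41 in STZ,BEZ and 0.20 in STZ,SD mice) and Kdm2a (0.28 in STZ,BEZ and 0.22 in STZ,SD mice) rose in both groups. In STZ,BEZ compared to STZ,SD mice 0 genes of all 6 lists passed the threshold.

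**Figure D4:**
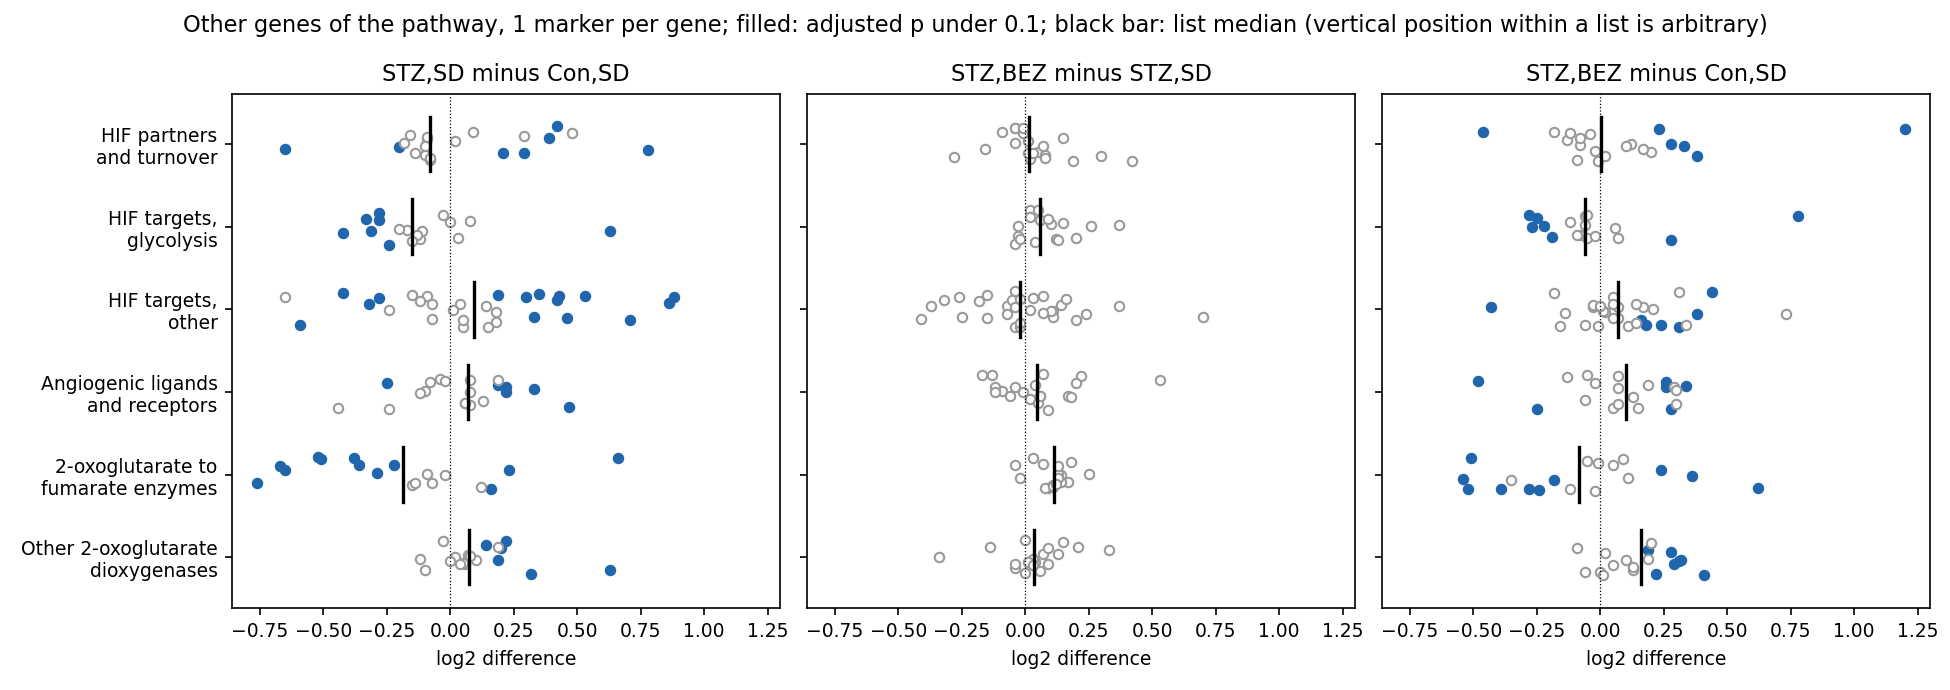
Log2 differences (horizontal axes) of the genes of 6 pathway lists in the 3 comparisons, 1 marker per gene, filled where the adjusted p was under 0.1, with a black bar at each list's median. The enzymes that make or remove 2-oxoglutarate, succinate or fumarate (labelled 2-oxoglutarate to fumarate enzymes) have the lowest median in STZ,SD minus Con,SD, -0.19. The middle panel holds 0 filled markers.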

How the data were processed

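Total RNA of skeletal muscle from 17 mice was hybridised to an Affymetrix whole-transcript mouse array. The deposited values are log2 expression values that the authors made with RMA in Affymetrix Expression Console 1.2, according to the submitters' processing notes. Quantile normalization forces the arrays to nearly 1 distribution, so a shift of most genes would not be seen. The values ran from 2.76 to 14.61, with array medians of 6.22 to 6.32. The number of arrays limits the precision, and scan dates were not used here, so no batch could be tested.

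Of 35556 probe sets, 21789 had 1 gene symbol, 1621 several and 12146 none. The symbols matched the reference gene table (GRCm38.p6) for 21698. For 999 genes with several probe sets the one with the highest mean was kept, which left 19938 genes. All 17 arrays entered 1 fit in limma 3.58.1 (R 4.3.3; lmFit and eBayes) with 1 coefficient per group, and a gene was called at a Benjamini-Hochberg adjusted p under 0.1 over all genes. Intervals are 95% intervals of that fit. The fit was tested on simulated data. The labels call the arrays biological replicates.

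The 10 genes, the 6 pathway lists and the 8 marker lists were chosen with earlier results of these data known. Named were all 10 genes, up to 4 called genes per pathway list and comparison with the smallest adjusted p, and the 5 genes most correlated with Egln3 in each of 2 rankings. Cul2, Eloc and Elob were named beside Vhl after their values were seen. So were Sdhd beside Sdhc, and the other isocitrate dehydrogenase genes beside Idh3a. Listed genes not in the table were not analysed here. Upstream sequences came from RefSeq. Alternatives were other scalings and filters, all probe sets, array weights, significance analysis of microarrays (SAM, 100 permutations), a replicate block, leaving out each array and, chosen after seeing the data, marker levels as covariates.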

Additional observations from a re-analysis of the deposited data

How the results depend on the processing

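For the 10 genes under the alternatives, 657 of 727 values kept their direction and their side of the threshold. Of the rest, 31 changed direction, 26 lost the call and 12 gained one. Egln3 against Con,SD mice was not judged by the threshold. Its value counted as kept if it moved by less than the within-group SD of 0.637 without a change of direction. In STZ,SD against Con,SD mice with the endothelial covariate (0.28) it moved by more, the 1 value left. Depth on arrays cannot be stated, and Hif3a is dim enough that its differences near 0 have no order.

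Without 1 array, Egln3 differed from Con,SD mice by 1.38 to 1.97 in STZ,SD and by 1.09 to 1.33 in STZ,BEZ mice. Its direction could not change there, because every array of both streptozotocin groups lay above every control array, so only the size is described. In STZ,BEZ against STZ,SD mice, whose arrays overlapped, the Egln3 difference was -0.76 to -0.17. Leaving out 1 array gave 3814 to 5430 genes called in STZ,SD against Con,SD, 4 to 6 in STZ,BEZ against STZ,SD and 2998 to 4712 in STZ,BEZ against Con,SD mice. Of the 10 genes it left 2 to 5, 0 and 3 to 4 past the threshold. The lowest count came without STZ,SD array 3, where Epas1 was the only tested gene called. These counts include Egln3, whose values against Con,SD mice are a description with no test. Values near 0 changed sign when 1 array was left out, with Epas1 at -0.0575 to 0.0402 in STZ,BEZ against STZ,SD, Hif3a at -0.0526 to 0.0637 in STZ,BEZ against Con,SD and Egln2 at -0.00298 to 0.0482 in STZ,SD against Con,SD mice.

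With all probe sets as rows 8673 probe sets were called in STZ,SD and 7408 in STZ,BEZ against Con,SD mice. In STZ,BEZ against STZ,SD mice, where 4 genes were called, the count was 8 with those groups alone, 11 with array weights, 29 with SAM, 7 with the slow-fibre and 14 with the hepatocyte covariate. Epas1 in that comparison became 0.0107 under median centring, 0.0326 with array weights, 0.00433 with the endothelial and 0.0023 with the hepatocyte covariate. Hif3a in STZ,BEZ against Con,SD mice became -0.00841 with array weights.

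Against Con,SD mice the endothelial covariate left 168 genes called in STZ,SD and 209 in STZ,BEZ mice. Apart from Egln3, it left 0 of the 10 genes called in either comparison. It turned Epas1 (-0.028), Arnt (-0.0433), Hif3a (-0.10), Hif1an (0.10) and Vhl (0.18) in STZ,SD mice. In STZ,BEZ mice it turned Egln3 (-0.17), Epas1 (-0.0236), Arnt (-0.16), Hif3a (-0.16), Hif1an (0.26) and Vhl (0.30). The slow-fibre covariate turned Hif1an (0.00464) and Vhl (0.01535) in STZ,BEZ against Con,SD mice. Apart from Egln3, which is not tested, the hepatocyte covariate left only Epas1 called there. These causes were not tested.

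The values showed no pairing of mice by replicate number, since the deviations of same-numbered arrays correlated at -0.239 to 0.096. A pairing that leaves no such trace could not be seen. A replicate block over the 15 arrays numbered 1 to 5 gave 4598, 5 and 3825 genes in the 3 comparisons in the order above. Apart from Egln3, which is not tested against Con,SD mice, it called Epas1, Arnt and Hif1a in STZ,SD against Con,SD mice. In STZ,BEZ against Con,SD mice it called Egln1, Epas1 and Vegfa. Between STZ,BEZ and STZ,SD mice it called 0 of the 10 genes. It turned Hif3a (-0.01269) in STZ,BEZ against Con,SD mice, as did the same 15 arrays without it (-0.01269).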
